A study of Mus musculus with 16 samples.

Results

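To see what was left of the response to DEN 6 days after injection in young livers, the 3 RNAseq libraries of 1-month-old mice at day 6 were compared with the 2 libraries of untreated 1-month-old mice. These are 5 of the 16 libraries of the series, and they were chosen by their labels alone. All mice were wild type C57BL/6 males, and each library was made from the pooled liver RNA of 3 mice. Day 6 mice received 1 intraperitoneal injection of diethylnitrosamine (DEN) at 25 mg per kg body weight per the labels, while the methods print the same figure per g. The younger mice are 3 to 4 weeks old by their labels and are called 1 month old in the treatment description. Controls carry a time point of 0 and no injection. No untreated mice were labelled as taken on day 6, so a difference between day 6 and control may follow from DEN, from the injection or from 6 further days of growth, and these cannot be told apart by the comparison itself. The other libraries used here were 3 of 1-month-old mice at day 2, and 2 controls, 3 at day 2 and 3 at day 6 from 6-month-old mice under the same treatment.

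DEN is taken up by hepatocytes, where cytochrome P450 enzymes turn it into a reactive form that alkylates DNA. The damage stabilises p53, a transcription factor that induces the cell cycle inhibitor Cdkn1a, its own regulator Mdm2 and a set of death receptors, kinases and repair genes. In the weeks around weaning and puberty the male liver also changes without any treatment. The pulsatile growth hormone of males raises a male-biased set of genes and lowers a female-biased set, and fetal and matrix genes recede as growth slows.

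Total counts of the 5 libraries were 21486961 to 31785053, and 15684 genes had enough counts to be tested. The libraries differed by more than the groups explain. The clock score, which is the mean log2 CPM (counts per 1000000) of 10 genes in phase with Dbp minus that of 5 in phase with Arntl, was 3.758 and -1.322 in the controls and 2.313, -2.723 and 1.447 at day 6. Control replicate 2 and day 6 replicate 2 thus stood apart from the other 3 libraries, with a share of mitochondrial counts of 2.39% and 2.18% against 3.82% to 5.0%. Alb was listed at 0 in all of the libraries, and the 10 hepatocyte markers tested summed to 66300 to 92730 CPM.

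No gene passed between day 6 and controls (0% of genes tested) when edgeR's quasi-likelihood p, adjusted by Benjamini-Hochberg, had to be under 0.1. The smallest adjusted p was 0.569. With no adjustment, 426 genes (2.72%) had a p under 0.05, 214 of them higher (1.36%) and 212 lower (1.35%) at day 6. This is below the share of 0.05 that the threshold allows when no gene differs. limma voom also called 0 genes. DESeq2 called 19 genes (0.121% of those it tested), 14 higher (Atp8b5, Rnaset2b, Nnmt, Srd5a1, Ddit4l, Eda2r, Ddias, Gm20537, Nat8, Mup21, Prok1, Plk2, RP23-306P12.3 and Cyp2c67) and 5 lower (Igf2bp3, Slc1a2, Sptb, Tenm3 and Cyp2a22). Without the low count filter edgeR called 49 of 28129 genes (0.174%). The 3 libraries of lowest clock score were control replicate 2, day 2 replicate 3 and day 6 replicate 2. Without them 1 control was left, and the log2 fold changes of Atp8b5 and Fgf21 were 2.30 and -3.25. Fgf21, a hepatic hormone of fasting, was at 6.60 and 1.94 CPM in controls and 0.624, 2.59 and 0.747 CPM at day 6. With day 2 replicate 3 alone left out, only Atp8b5 passed in edgeR. The median log2 fold change over all genes was -0.01. The genes below are therefore described by their values in each library, and none of them passed unless this is stated.

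Genes of the DNA damage response were among the highest ranked at day 6, at levels below those of 6-month livers. Atp8b5 (ENSMUSG00000028457, chromosome 4 of GRCm38 from 43267159 to 43373833), a phospholipid transporter of the P4-ATPase family, was at 0.92 and 1.05 CPM in the controls and at 4.32, 2.71 and 4.76 CPM at day 6. All 3 day 6 libraries were above both controls, and the log2 fold change was 1.98 ± 0.35 (SE; edgeR adjusted p = 0.569). In 6-month livers it went from 1.35 and 1.02 CPM in controls to 16, 12.4 and 15.1 CPM at day 6, and this rise passed (log2 fold change 3.62, edgeR adjusted p = 0.000354). Ddit4l, an inhibitor of mTOR signalling, was at 0.805 and 1.26 CPM in the 1-month controls and 3.55, 2.18 and 3.73 CPM at day 6. Both genes were picked from those without overlap between the groups, so their separation was set by the choice. The lowest day 6 library of Ddit4l was again replicate 2.

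**Figure D1:**
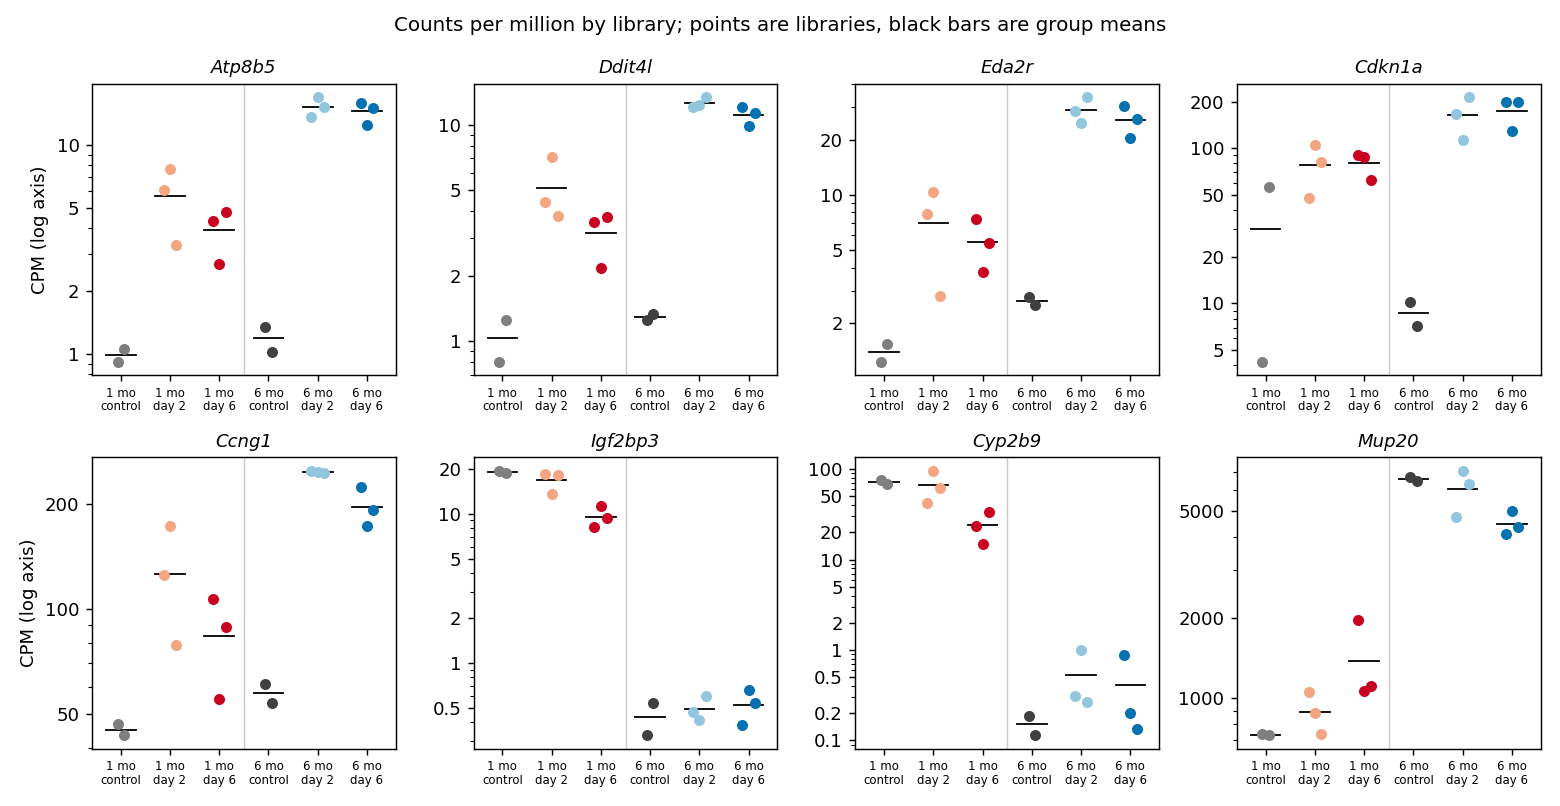
CPM (log axis) of 8 genes in each of the 16 libraries, by age (1 or 6 months) and group; each point is a library pooled from 3 mice and each black bar a group mean. Atp8b5, Ddit4l, Eda2r and Ccng1 lie above both controls in every 1-month day 6 library and below all 6-month day 6 libraries, while Igf2bp3, Cyp2b9 and Mup20 at day 6 lie between the 1-month controls and the 6-month level.

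The 12 genes with the smallest p among those higher at day 6 were taken only from genes without overlap between day 6 and controls. Their separation was therefore fixed by the choice. Of these 12, 5 belonged to the genes that passed after DEN in 6-month livers. Beside Atp8b5 and Ddit4l these were Eda2r, a p53-induced receptor of the TNF receptor family, Ddias, an apoptosis suppressor induced by DNA damage, and the polo-like kinase Plk2. Eda2r was at 1.23 and 1.53 CPM in controls and 7.34, 3.80 and 5.46 CPM at day 6, or 1.99 ± 0.46 (SE) on the log2 scale. Ddias had 1.42 and 2.48 CPM against 4.65, 4.10 and 5.98 CPM. Both were without overlap, as the choice required.

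All 5 were also higher in 6-month than in 1-month livers at day 2. The other 7 were Rnaset2b, Nnmt, Srd5a1, Nat8, Prok1, Cyp2c67 and Mup21, of which 5 (all but Rnaset2b and Prok1) were likewise higher in the older livers. Nnmt, the methyltransferase of nicotinamide, was at 39.9 and 37.9 CPM in controls and at 116, 62.0 and 74.8 CPM at day 6. Srd5a1, a steroid 5-alpha reductase, was at 51.3 and 74.6 CPM in controls and had 107 CPM in its lowest day 6 library. Nat8, an N-acetyltransferase of the male-biased list, was at 1.07 and 0.986 CPM in controls and 3.31, 2.07 and 3.26 CPM at day 6. None of these 3 genes passed in 6-month livers, where their log2 fold changes at day 6 were -0.23, -0.27 and 0.41.

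Rnaset2b, a secreted ribonuclease, and Prok1, a secreted peptide, belonged to neither set. Rnaset2b was at 0.920 and 0.816 CPM against 4.70, 3.72 and 4.4 CPM, and its near copy Rnaset2a, named after its values were seen, was at 1.42 and 1.19 CPM against 4.46, 4.32 and 4.56 CPM. The 2 genes may share reads, so they count as 1 observation.

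The 12 genes with the smallest p among those lower at day 6 were likewise taken only from genes without overlap. Of these 12, 7 were also lower in 6-month than in 1-month livers at day 2. Igf2bp3 (ENSMUSG00000029814, chromosome 6 of GRCm38 from 49085223 to 49214957), an RNA-binding protein of fetal tissues, was at 19.4 and 18.8 CPM in controls and 8.11, 11.2 and 9.28 CPM at day 6. The difference was -1.0 ± 0.20 on the log2 scale (SE; edgeR adjusted p = 0.569), with close controls and no overlap. At 6 months it was at 0.327 and 0.540 CPM in controls, so the day 6 livers lay between the 2 ages. The erythrocyte spectrin Sptb had 4.26 and 3.36 CPM against 0.672, 1.24 and 1.34 CPM. Sptb was lower in every day 6 library. Of 8 erythroid markers 6 were lower, and their summed level was 435 and 709 CPM in controls and 239, 544 and 388 CPM at day 6, with overlap. The part of blood content in the difference of Sptb was not tested.

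Slc1a2, a glutamate transporter of pericentral hepatocytes, was at 208 and 127 CPM in controls and 61.8, 59.5 and 70.7 CPM at day 6, or -1.38 ± 0.31 (SE) on the log2 scale. It was also lower in the day 6 libraries at 6 months, from 248 and 262 CPM to 151, 120 and 89.0 CPM (log2 fold change -1.08, which did not pass). Glul and Oat, which make and break down glutamine and ornithine in the same pericentral cells, had log2 fold changes of -0.65 and -0.70 at 1 month and of -1.02 and -1.55 at 6 months. For all 3 genes each 1-month day 6 library was below both controls, yet of the 16 pericentral genes only these 3 were so separated (18.8%, against 7.26% of all genes tested that were lower without overlap), and Cyp2e1, which activates DEN, was at 7474 and 6400 CPM in controls and 6709, 4357 and 7039 CPM at day 6.

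To set the remaining DEN response beside growth, lists were drawn from libraries that the comparison does not use. The DEN list holds the genes that passed at day 2 or day 6 in 6-month livers, 42 higher and 15 lower. On day 2, 0.242% of genes tested passed as higher and 0.0765% as lower (0.319% in all), and on day 6 0.191% and 0.0574% (0.249% in all). The age list holds the genes that passed between 6-month and 1-month livers at day 2, when both ages had received DEN. A difference between the ages in the DEN response may thus enter it. Leaving out the DEN list, it holds 490 genes higher and 411 lower at 6 months. Of all genes tested, 3.27% and 2.63% (5.9% in all) passed in that comparison. Both lists are of genes whose direction is known from other mice, and the 5 libraries had no part in choosing them other than through the shared estimate of spread.

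At day 6 in 1-month livers, 39 of the 42 genes of the DEN list that were higher at 6 months were also higher, against 48% of all genes tested. The median log2 fold change was 0.596, against -0.01 over all genes. In 25 of them (59.5%) every day 6 library was above both controls, against 7.09% of all genes tested. Of the 42 genes, 23 had also passed between the ages at day 2. Among the other 19, 8 (42.1%) were higher without overlap, and the median was 0.535. Higher with an unadjusted edgeR p under 0.05 were 26.3% of the 19 and 47.6% of all 42, against 1.36% of all genes tested. By library, day 6 was at 0.128, 0.268 and 0.50 for the 19, with the controls 0.23 apart. The medians of the 42 in single libraries at day 6, relative to the control mean, were 0.66, 0.309 and 0.526, and the 2 controls differed by 0.19 from each other, control replicate 2 being the higher. All 3 day 6 libraries thus lay above both controls, and replicate 2 was the lowest.

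The same 42 genes had a median log2 fold change of 1.717 at day 6 in 6-month livers. Gene by gene, the 1-month value was a median of 0.339 of the 6-month value on the log2 scale (quartiles 0.165 and 0.513). The list was chosen on the 6-month libraries, which favours large values there. Of the 15 genes lower after DEN at 6 months, 13 were lower at day 6 at 1 month, with a median of -0.369, and 7 (46.7%, against 7.26% of all genes) were below both controls in every library. Among these were Fhit, Oat, Glul and Rcan2.

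**Figure D2:**
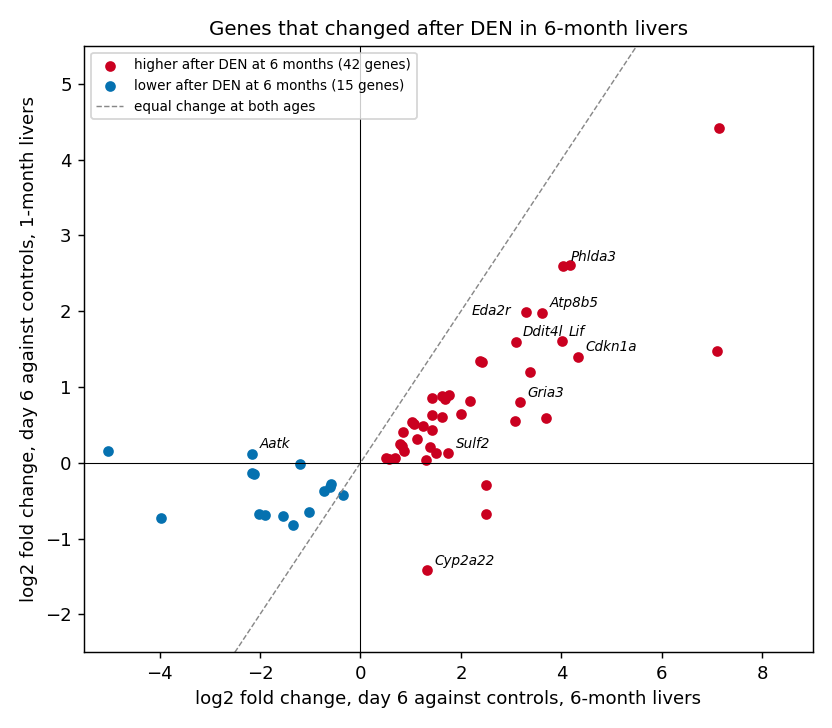
Log2 fold change at day 6 against controls of the 57 genes that passed at day 2 or day 6 after DEN in 6-month livers, with 6-month livers on the x axis and 1-month livers on the y axis; each point is a gene and the dashed line marks equal change. Most points have the same sign at both ages but lie nearer to 0 at 1 month, while 5 genes, Cyp2a22 the farthest of them from 0 at 1 month, have opposite signs. For genes with controls at 0 CPM the size depends on the prior count.

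The members differed widely in the size of the difference at day 6 in 1-month livers. Phlda3, a p53-induced repressor of Akt signalling, was at 1.30 and 1.16 CPM in controls and at 8.88, 2.59 and 10.9 CPM at day 6 (log2 fold change 2.60 ± 0.78 SE, and 4.03 at 6 months). Mbl2, a mannose-binding lectin secreted by hepatocytes, was at 494 and 492 CPM in controls and 791, 615 and 882 CPM at day 6. At the other end, the sulfatase Sulf2 was at 13.1 and 15.4 CPM against 15.4, 11.8 and 19.5 CPM, with overlap, although it passed at 6 months with a log2 fold change of 1.75. Aatk, a kinase, was at 1.92 and 1.60 CPM in 1-month controls and at 1.63, 2.10 and 1.97 CPM at day 6. At day 2 it was at 2.71, 1.75 and 1.74 CPM at 1 month, so no fall was seen there on either day. At 6 months it went from 13.4 and 13.7 CPM in controls to 3.45, 2.92 and 2.75 CPM at day 6. The control and day 6 libraries of 1-month livers were below all 6-month libraries.

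Of the DEN genes (higher), Cyp2a22, Lrtm2 and Gm26599 were lower at day 6 at 1 month, and Aatk and Cfd were the exceptions among the DEN genes (lower). Lrtm2, like Cyp2a22, was without overlap, but it was at 0.102 CPM or less in these 5 libraries. Cyp2a22 was at 39.7 and 46.7 CPM in 1-month controls and 13.9, 11.3 and 23.4 CPM at day 6. At day 2 it was at 43.1, 63.6 and 38.8 CPM at 1 month, which overlapped the controls. At 6 months it was at 1.31 and 1.36 CPM in controls and 4.45, 2.83 and 2.86 CPM at day 6. Day 6 and controls did not overlap at either age, in opposite directions. The difference between the ages did not pass (log2 difference 2.75, edgeR adjusted p = 0.54). Day 6 at 1 month still lay above all 6-month libraries.

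**Figure D3:**
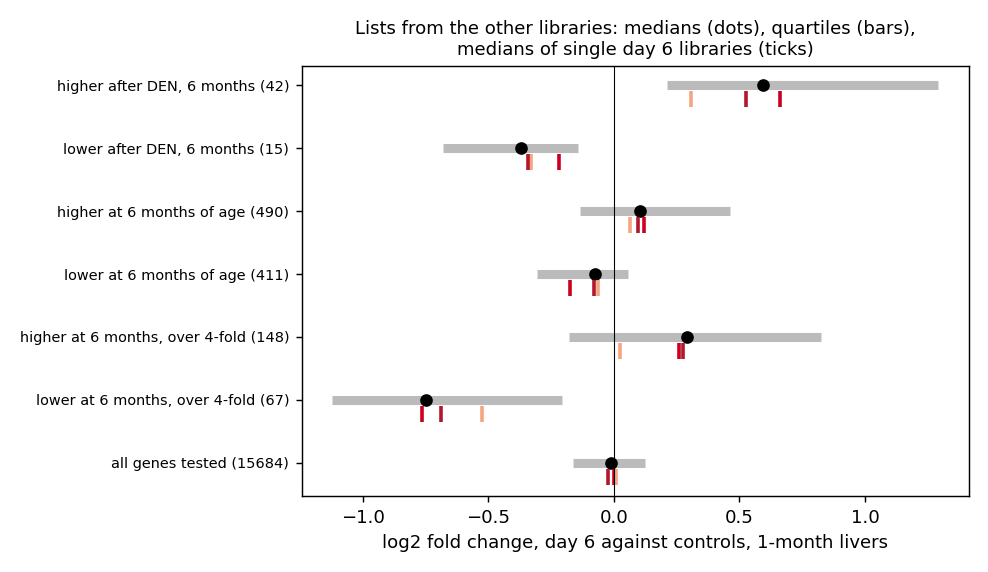
Log2 fold change at day 6 against controls in 1-month livers for lists drawn from other libraries, with the number of genes in brackets; dots are medians over genes, bars run from the lower to the upper quartile, and ticks are medians of each of the 3 day 6 libraries against the control mean. The DEN lists lie at 0.596 and -0.369, the age lists at 0.106 and -0.075, and the genes over 4-fold lower at 6 months at -0.750.

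The age list moved less at the median but in the direction of the older liver. Of the 490 genes higher at 6 months, 298 (60.8%) were higher at day 6, with a median log2 fold change of 0.106, and 16.5% (against 7.09% of all genes) were above both controls in every library. Of the 411 lower at 6 months, 258 (62.8%, against 51.9% of all genes) were lower at day 6, with a median of -0.075, and 19% (against 7.26%) were below both controls in every library. Among the 67 genes that were over 4-fold lower at 6 months, 58 were lower at day 6, 32 (47.8%, against 7.26%) without overlap, and the median was -0.750. The 148 genes over 4-fold higher had a median of 0.291. In 6-month livers the same 67 and 148 genes had medians of 0.012 and 0.024 between day 6 and controls. Of the 411 genes, 253 (61.6%, against 50.3% of all genes) were lower there, with a median of -0.054. Of the 490 genes, 268 (54.7%, against 49.6%) were higher there, with a median of 0.035. The shift of the 411 genes was thus not particular to 1-month livers.

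In proportion, the genes over 4-fold lower had moved by a median of 0.222 of the log2 difference between the ages at day 2, and those over 4-fold higher by 0.096. By library, day 6 was at -0.763, -0.527 and -0.690 for the first of these lists and 0.259, 0.023 and 0.277 for the second. Control replicate 2 differed from control replicate 1 by 0.025 and -0.071, so day 6 replicate 2 lay within the range of the controls for the second list. Of the genes over 4-fold lower, 14 were on the list of female-biased genes described below, and 7 of those over 4-fold higher were on the male-biased list. Controls of the 2 ages differed in 418 genes (2.67%, with 1.61% higher and 1.06% lower at 6 months), and these values were not used here because the 1-month controls enter both comparisons.

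The p53 targets were taken from a list of 37 genes written from general knowledge, with earlier results of these data known. Its members Cdkn1a, Mdm2, Ccng1, Phlda3, Eda2r, Plk2, Tnfrsf10b, Aen, Ddit4l, Ddias, Polk, Apaf1 and 9030617O03Rik are also on the DEN list (higher). The p53 and DEN lists are therefore not separate observations. Of the 37 genes, 28 were higher at day 6 and 9 lower, with a median log2 fold change of 0.430, and none passed. In 16 (43.2%) every day 6 library was above both controls, against 7.09% of all genes. Medians of the single libraries were 0.60, 0.20 and 0.33 at day 6 and 0.74, 0.73 and 0.32 at day 2, all above the controls at -0.05 and 0.05. At 6 months the list had a median of 0.871 at day 6.

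Cdkn1a (ENSMUSG00000023067, chromosome 17 of GRCm38 from 29090979 to 29100722), the p21 inhibitor of cyclin-dependent kinases, was at 4.22 and 56.4 CPM in the 2 controls and 90.8, 87.5 and 62.2 CPM at day 6. The day 6 libraries were above both controls, but control replicate 2 stood far above control replicate 1. The log2 fold change was 1.40 ± 0.68 (SE), and without control replicate 2, which leaves 1 control, it was 4.25. Mdm2, the ubiquitin ligase of p53, was at 29.7 and 29.6 CPM in controls and 51.1, 32.2 and 41.0 CPM at day 6. Ccng1, a cyclin that dampens p53, was at 46.8 and 43.5 CPM against 107, 55.2 and 88.8 CPM. In both genes day 6 replicate 2 was close to the controls and replicate 1 was the highest.

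Among the effectors, Tnfrsf10b, the mouse TRAIL receptor, was at 0.997 and 1.16 CPM against 2.78, 2.48 and 2.95 CPM, and the exonuclease Aen was at 18.1 and 14.5 CPM against 35.5, 23.2 and 31.5 CPM. Gdf15, a secreted stress signal, was at 5.68 and 6.12 CPM against 26.7, 8.61 and 13 CPM. These 3 were without overlap. The proapoptotic genes Bbc3 and Pmaip1 and the excision repair genes Xpc and Ddb2 had log2 fold changes of 0.30, -0.20, 0.00 and -0.02. The 29 genes of double-strand break repair and the 33 of alkylation, excision and mismatch repair had medians of 0.002 and 0.073. Of these, 16 and 26 were higher, against 48% of all genes tested. Higher without overlap were 13.8% and 6.06%, against 7.09% of all genes.

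The half-site of the p53 response element was searched in promoter windows of RefSeq (GRCm38.p6) from 250 bases before to 50 bases after each start site, on both strands, which read alike because the consensus is its own reverse complement. It was present in 10 of the 30 genes of the DEN list (higher) that had a window (33.3%), in 12 of 28 p53 targets (42.9%), and in 9.55% of all 27025 genes with one. For 5 genes whose values are given here, 1 match each is shown with 10 bases on either side, 5′ to 3′ on the strand of the gene, with the 4-base core in capitals.
Cdkn1a, chr17:29090918-29090947, plus strand: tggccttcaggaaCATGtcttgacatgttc
Ccng1, chr11:40755452-40755481, minus strand: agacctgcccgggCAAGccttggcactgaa
Mdm2, chr10:117710925-117710954, minus strand: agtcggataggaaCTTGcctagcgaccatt
Aen, chr7:78895927-78895956, plus strand: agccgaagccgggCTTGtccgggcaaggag
Ddit4l, chr3:137623572-137623601, plus strand: caactcccaggggCTTGcctgggcccctgc
Cdkn1a held 1 further half-site upstream, which together with the one shown made a full site (0.074% of all genes with a window held one). A match is a stretch of letters and not a measured binding site. No match is shown for Atp8b5, Eda2r, Plk2 or Phlda3, which says nothing of binding elsewhere.

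**Figure D4:**
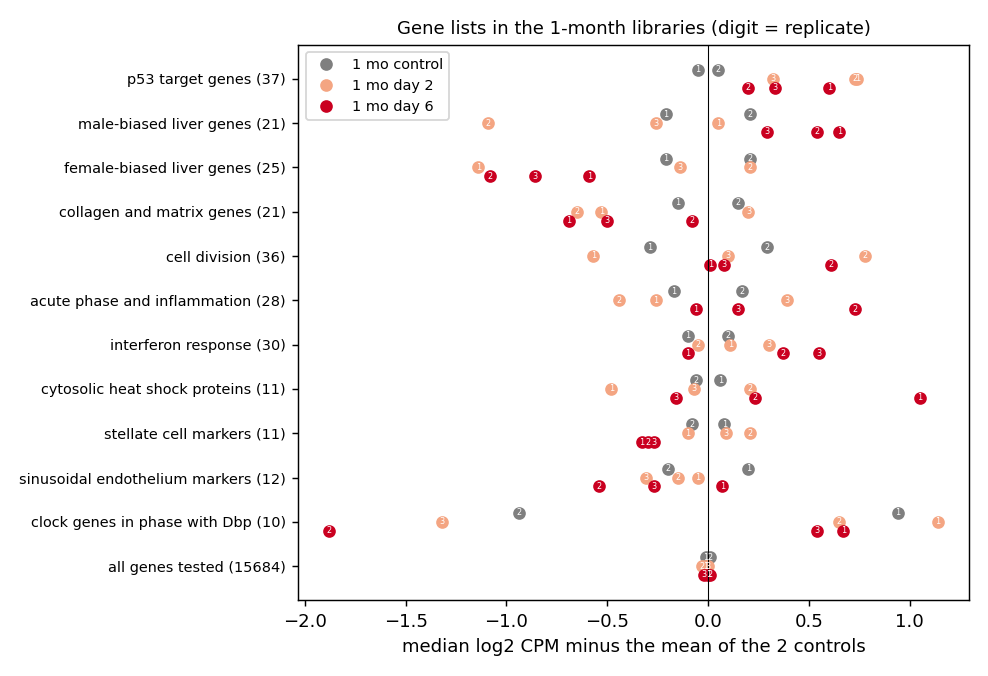
Median log2 CPM of gene lists in each 1-month library minus the mean of the 2 controls, with the number of genes in brackets; each point is a library with its replicate number, in grey for controls, orange for day 2 and red for day 6. All 3 day 6 libraries lie above the controls for p53 targets and male-biased genes and below them for female-biased genes and stellate cell markers, and the clock genes separate control 2, day 2 replicate 3 and day 6 replicate 2 from the rest.

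Of the sex-biased genes, which in the liver follow the pattern of growth hormone release, the male-biased were mostly higher and the female-biased mostly lower. All 21 male-biased genes tested had a log2 fold change above 0, with a median of 0.452, and 7 (33.3%) were without overlap, against 7.09% of all genes. Moxd1, counted as higher, was at 0 CPM in both controls and at 0, 0 and 0.039 CPM at day 6. Medians of the list by library were -0.21 and 0.21 in controls and 0.65, 0.54 and 0.29 at day 6. At day 2 the list was higher at 6 months than at 1 month by a median log2 difference of 1.524. Its members Slco1a1, Selenbp2 and Ugt2b38 were at -0.002, -0.28 and -0.29. Of the 25 female-biased genes tested, 21 were lower, with a median of -0.857, and 15 (60%) were without overlap, against 7.26%. In 6-month livers at day 6 the medians were -0.247 and 0.012. No member passed, and 3 of the 28 female-biased genes had too few counts to be tested.

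Mup20, the urinary protein darcin, was at 734 and 728 CPM in controls and 1952, 1070 and 1109 CPM at day 6, against 6692 and 6440 CPM in 6-month controls. Gstp1, a glutathione transferase, was at 438 and 508 CPM against 743, 691 and 683 CPM. Complement C6 was at 63.9 and 115 CPM against 179, 194 and 119 CPM. In all 3 the groups did not overlap, and C6 had the narrowest gap. Mup1, Mup7 and Mup12, which have near copies, were at 0 in 1 of the 6-month controls and are uncertain.

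Cyp2b9, a steroid hydroxylase of the female liver, was at 76.6 and 68.1 CPM in controls and 23.6, 15.0 and 33.4 CPM at day 6 (log2 fold change -1.59 ± 0.45 SE). The transporter Slc22a26 was at 23.2 and 29.5 CPM against 9.40, 11.6 and 4.84 CPM, and Cyp2c69 at 104 and 176 CPM against 40.7, 64.1 and 67.9 CPM. Hao2, a hydroxyacid oxidase, was at 14.6 and 23.4 CPM against 1.87, 11.2 and 3.66 CPM. Every day 6 library was below both controls in these 4 genes, and all 4 were at or under 2.08 CPM in 6-month controls. At day 2 the female-biased list was at -1.14, 0.21 and -0.14 by library, so 1 day 2 library was as low as those of day 6. The male-biased list was at 0.05, -1.09 and -0.26 at day 2, and 52.4% of its genes were higher at day 6 than at day 2 without overlap, against 3.56% of all genes.

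Bcl6, a repressor that growth hormone pulses control and that acts on female-biased genes, was at 17.6 and 13.3 CPM in controls and 67.2, 60.8 and 24.7 CPM at day 6. The day 6 libraries were above both controls, and replicate 3 was the lowest. The 16 genes of the growth hormone and IGF axis had a median of -0.128, and 4 (25%, against 7.26% of all genes) were lower without overlap.

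The collagen and matrix genes were lower as a set, though not in every day 6 library. All 21 had a log2 fold change below 0, with a median of -0.407, and 8 (38.1%) were without overlap, against 7.26% of all genes. Sparc, a matrix glycoprotein, was at 186 and 152 CPM in controls and 111, 121 and 118 CPM at day 6, and Col5a1 at 19.2 and 20.9 CPM against 9.02, 16 and 12 CPM. Col3a1 was at 150.3 and 147 CPM against 81.3, 117 and 91.2 CPM. All 3 were separated between the groups, with day 6 replicate 2 the highest at day 6. By library the list was at -0.69, -0.08 and -0.50 at day 6. The controls were at -0.15 and 0.15, so day 6 replicate 2 lay within their range. At day 2 the list was at -0.53, -0.65 and 0.20. Control replicate 2, day 2 replicate 3 and day 6 replicate 2, the libraries of lowest clock score, were each the highest of their group. Stellate cells, which make most of this matrix, had 10 of 11 markers lower (median -0.204), and their summed level was 575 and 534 CPM in controls and 427, 466 and 417 CPM at day 6. Col3a1 is on both lists, and without it the other 10 markers summed to 425 and 387 CPM against 346, 349 and 325 CPM. The sinusoidal endothelium had 12 of 12 lower (median -0.243), with a summed level of 655 and 489 CPM against 582.4, 385 and 470 CPM, which overlapped. The part of cell content in the matrix genes was not tested. In bulk liver RNA, fewer cells of a type and less RNA per cell cannot be told apart. The 18 fetal and imprinted growth genes tested had 13 members lower and a median of -0.232.

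Of the 36 genes of cell division, 30 were higher at day 6, with a median of 0.230, and 10 (27.8%) were without overlap, against 7.09% of all genes. At 6 months the list had a median of 0.204 at day 6. Between 6-month and 1-month livers at day 2 its median log2 difference was -1.173, lower at 6 months. Of Mcm2 to Mcm7 and Cdc6, which license and open replication origins, 6 of 7 were higher without overlap. The other 4 without overlap, among the remaining 29 genes, were Pcna, Rrm1, Rrm2 and Tyms. The 7 genes were singled out after their values were seen, so their share cannot be set against that of the 29. Mcm2 was at 4.64 and 4.96 CPM in controls and 9.31, 9.40 and 7.86 CPM at day 6, Mcm5 at 5.48 and 7.31 CPM against 13, 10.15 and 10.03 CPM, and Cdc6 at 0.345 and 0.340 CPM against 2.25, 1.13 and 1.34 CPM. Genes of mitosis lay on both sides of 0, from log2 fold changes of -0.78 and -0.49 in Ccnb2 and Ccnb1, the lowest of the list, to 0.34 in Plk1 and 0.59 in Top2a.

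Inflammatory genes differed between the day 6 libraries. Of the 28 acute phase genes, 22 were higher (median 0.336) and 8 (28.6%, against 7.09% of all genes) were without overlap, while 2 (7.14%) were lower without overlap. Saa1, serum amyloid A, was at 44.7 and 52.6 CPM in controls and 111, 250.9 and 103.5 CPM at day 6, and Saa3 at 5.75 and 4.79 CPM against 9.69, 9.28 and 10.03 CPM. Hpx, the haem carrier hemopexin, was at 5211 and 5545 CPM against 6374, 9252 and 7671 CPM. Replicate 2 was the highest for Saa1 and Hpx, and for the list as a whole (-0.06, 0.73 and 0.15). Of the 30 interferon genes 24 were higher, with a median of 0.297, but only 2 (6.67%) were without overlap, and Igtp, an interferon-induced GTPase, was at 45.7 and 45.7 CPM against 56.0, 71.6 and 165.5 CPM. All 11 cytosolic heat shock genes were higher (median 0.440) and none was without overlap, since 1 library, day 6 replicate 1, was at 1.05 and the others at 0.23 and -0.16.

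Of the clock genes, Nr1d1, the repressor REV-ERB alpha, was at 71.0 and 69.5 CPM in controls and 21.2, 33.4 and 40.5 CPM at day 6. The controls were of different clock scores, and the part of clock phase in this difference was not tested. The other 9 genes in phase with Dbp overlapped. Jund, a subunit of AP-1, was at 21.1 and 17.7 CPM against 34.5, 33.1 and 29.8 CPM.

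Relative to day 2, day 6 livers of 1-month-old mice had 37 of the 42 DEN genes (higher) at a lower level, with a median log2 difference of -0.319, and 5 (11.9%) below all day 2 libraries, against 3.28% of all genes. Of the 15 DEN genes (lower), 13 were higher at day 6 than at day 2, with a median of 0.358. Nnmt alone passed between the days (0.00638% of genes tested), with 33.2, 35.7 and 32.2 CPM at day 2 (log2 difference 1.32 ± 0.19 SE, edgeR adjusted p = 0.0857). It was below both controls on day 2 and above both on day 6. The call was close to the threshold: leaving out each of the 16 libraries in turn left no call in 11 fits.

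The response at day 6 differed between the ages in 2 genes at an adjusted p under 0.1 (0.0128% of genes tested), Aatk and Gria3. Gria3, a subunit of AMPA glutamate receptors, was at 4.87 and 6.76 CPM in 1-month controls and 12.3, 10.1 and 8.10 CPM at day 6, while at 6 months it was at 2.47 and 2.65 CPM and then at 25.1, 19.3 and 24.9 CPM. Both ages were higher at day 6 without overlap, and the difference was larger at 6 months. Leaving out each of the 16 libraries in turn left no call between the ages in 9 fits, control replicate 2 and day 6 replicates 2 and 3 of the 1-month livers among them. At 6 months 57 genes passed on day 2 or day 6, and the other 55 were not shown to differ from 1 month at day 6. For Cdkn1a, Phlda3 and Eda2r the log2 differences between the ages were 2.93, 1.44 and 1.30.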

How the data were processed

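Counts of 16 mouse liver libraries in 6 groups were used, each from the pooled RNA of 3 mice, and nothing states that pools came from separate cohorts. The authors sequenced the libraries on an Illumina NextSeq, mapped the reads to GRCm38 with TopHat2 2.0.13 and deposited raw counts per gene. The submitters' processing notes also name cutadapt, Cufflinks 2.2.1, Cuffnorm and DESeq2 1.10.1. The program that assigned reads, and whether it used strand, was not given in the sources used here. Overlapping and near-identical genes are therefore uncertain. The same table holds 16 columns of normalized values and the authors' fold changes and p-values, which were not used.

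Genes were kept by filterByExpr, scaled by TMM and tested in 1 model of 6 groups with edgeR 4.0.16 (glmQLFit, glmQLFTest) in R 4.3.3, and Benjamini-Hochberg adjusted p-values under 0.1 were called. The p-values measure the spread between pools. Fold changes have a prior count of 0.125, log2 CPM a prior count of 2, and CPM is over TMM-scaled library sizes. Total counts were 19039330 to 34459774. DESeq2 1.42.0 and limma 3.58.1 were alternatives, and all were tested on simulated data. A larger share of false calls was accepted there for DESeq2 than for edgeR and limma. Without overlap means that each library of 1 group is above each of the other. Named genes are the 12 of smallest p per direction, up to 3 per list and 8 per yardstick list, where the DEN and age lists are the yardsticks. The 12 were taken from genes without overlap between day 6 and controls, at 1 CPM or more and with a named symbol. Others were named after their values were seen. The members and the 36 lists were chosen with earlier results of these data known.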

Additional observations from a re-analysis of the deposited data

Results flagged for a closer look

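In 2 genes the day 6 response differed between the ages by the contrast of both differences from controls. The log2 fold change of Gria3 was higher at 6 months than at 1 month by 2.37 (SE 0.35, edgeR adjusted p = 0.0598), and the direction was upward in all 3 day 6 libraries of both ages. That of Aatk was lower by -2.28 (SE 0.32, edgeR adjusted p = 0.0598), with all 3 day 6 libraries below both controls at 6 months and within or above their range at 1 month. No group had 4 or more libraries, so no single library was tested as an outlier.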

How the results depend on the processing

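For day 6 against controls in 1-month livers, DESeq2 called 19 genes and edgeR without a low count filter 49. RLE, voom, the 1-month libraries alone, the 5 libraries alone, the clock score as a covariate and the replicate block gave 0 calls. Leaving out 1 treated library gave 0 to 1 calls, the call being Atp8b5 without day 2 replicate 3. Leaving out a control, or the 3 libraries of lowest clock score, leaves 1 control in a group. Counts of comparisons with that group then rest on this control. For day 6 against day 2, where 1 gene passed, RLE, voom, the 1-month libraries alone, the groups alone and the 1-month libraries with the clock score (chosen after seeing the data) gave 0 calls, DESeq2 31, no filter 86, the replicate block 2, no low-clock libraries 3, and leaving out 1 library 0 to 10. For the difference between ages, with 2 calls, DESeq2 gave 11, voom 1, no filter 22, no low-clock libraries 0, and leaving out 1 library 0 to 11 (0 without 1-month control replicate 2).

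The DEN list of 57 genes would have held 132 by DESeq2, 241 by voom, 153 without the filter and 87 with the clock covariate, and 12 to 75 with 1 library left out (12 without 6-month control replicate 2, 36 without 6-month day 2 replicate 1). The day 2 comparison of ages, with 926 calls, gave 1479 by DESeq2, 464 with its groups alone, 1927 with the clock covariate and 385 to 2259 with 1 library left out (2259 without 1-month day 2 replicate 1, 385 without 6-month day 2 replicate 3). That of controls, with 418, gave 746, 111 and 824 in the same order, 794 without the filter, 158 without the low-clock libraries and 114 to 456 with 1 library left out.

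The median of the DEN genes (higher) stayed within 0.501 to 0.678 with 1 library left out. That of the DEN genes (lower) was -0.291 by voom, -0.561 without the low-clock libraries and -0.589 (without control replicate 2) to -0.253 (without control replicate 1). The age list (higher) was at 0.077 with the replicate block, 0.153 with the 1-month libraries and clock score, and 0.086 to 0.163 with 1 library left out, and the age list (lower) at -0.117 to -0.036. Of 1664 values of 64 named genes, 3 changed sign, Aatk without the low-clock libraries (-0.087) or control replicate 2 (-0.008) and Sulf2 without day 6 replicate 3 (-0.066), with ranges up to 0.255 and 0.305 when 1 library was left out, and 48 passed that had not. The cause of these changes was not tested.

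Controls and day 6 libraries share only 2 replicate numbers, so the replicate block rests on a number alone. Deviations of same-numbered control and day 6 libraries from their group means correlated at 0.54 and 0.59, and those of day 2 and day 6 at 0.28, -0.30 and -0.09. With 2 controls the deviations mirror each other, so the crossed pairs gave -0.54 and -0.59 and add nothing. The same-numbered controls and day 6 libraries were also alike in clock score (3.758 with 2.313, and -1.322 with -2.723). The part of clock phase in these correlations was not tested. Pools of 3 mice, 2 controls and counting depth limit what could be detected.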

Other observations

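Of all genes tested, 7.09% were higher and 7.26% lower without overlap. Several pathways were close to the background of all genes at day 6 in 1-month livers. The 25 genes of intrinsic apoptosis tested had a median log2 fold change of 0.117, with 8% higher without overlap, and the 21 genes of NRF2 and oxidant defence one of 0.076, with 4.76%. The 20 genes of cholesterol synthesis and the 14 of fatty acid synthesis had medians of -0.111 and 0.020, and none of their members was without overlap. By direction, though, 16 of the 20 genes of cholesterol synthesis were lower, against 51.9% of all genes. The 20 genes of NAD and nicotinamide metabolism, which include Nnmt, had a median of 0.054. The 9 genes of DEN activation, cytochromes P450, their electron donors and aldehyde dehydrogenases, had a median of 0.049.

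Other lists were more uneven. Of the 23 genes of fasting and fatty acid oxidation tested, 20 were lower, with a median of -0.164, and 17.4% were lower without overlap. Of the 17 immediate early genes, 12 were higher, with a median of 0.343, and 17.6% were higher without overlap. Of the 15 periportal hepatocyte genes, 11 were higher, and 26.7% were higher without overlap at a median of 0.097. Of the 13 macrophage markers, 12 were lower, with a median of -0.073, and none was without overlap. The 12 lymphocyte and 6 neutrophil markers tested had medians of 0.010 and -0.292, the latter with 3 higher and 3 lower. No member of these lists passed in edgeR's test.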
